A study of Mus musculus with 4 samples.

Results

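The NF-κB and IκB family was followed in virus-specific CD8+ T cells through 10 genes, which are Bcl3, Nfkb1, Nfkb2, Rel, Rela, Relb, Nfkbia, Nfkbib, Nfkbie and Nfkbiz. They were taken by symbol from the 27998 genes of the deposited counts, where each symbol had 1 row, and all 10 passed the filter on low counts. The cells were H-2Db-GP33+ CD8+ cells sorted from spleens of mixed bone marrow chimeras on day 8 after infection with the Armstrong strain of LCMV, an acute infection of mice. WT marrow (CD45.1) and Bcl3-/- marrow (CD45.2), both on the C57BL/6 background, had been mixed in equal parts and given to sub-lethally irradiated Rag1-/- hosts, which make no T or B cells of their own but keep host myeloid cells. Each of 2 chimeras gave 1 library of each genotype, called WT1 and KO1 (chimera 1) and WT2 and KO2 (chimera 2), so that n = 2 per genotype and both genotypes of a pair shared 1 host animal. Neither labels nor methods used here state how old the mice were. Keeping barcodes with 500 genes or more and no more than 10% of UMIs from mitochondrial genes left 4941 cells in WT1, 5366 in KO1, 8092 in WT2 and 6494 in KO2, and the median cell held 3571, 3620.5, 2019 and 2948 unique molecular identifiers (UMIs, 1 per captured transcript) in that order.

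NF-κB factors are dimers of the Rel proteins RelA, RelB and c-Rel with p50 and p52, which are cut from the precursor proteins of Nfkb1 and Nfkb2. The classical inhibitors IκBα, IκBβ and IκBε (Nfkbia, Nfkbib and Nfkbie) hold these dimers in the cytoplasm until an IκB kinase marks them for degradation, whereas Bcl-3 and IκBζ (Nfkbiz) act in the nucleus on dimers of p50 or p52. In T cells the pathway is set off by the antigen receptor, by costimulation and by receptors of the TNF family, and several members, among them Nfkbia, Nfkb2, Relb and Bcl3, are known targets of NF-κB themselves.

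Since members can be targets of the family, promoters were read for the κB consensus, the motif bound by NF-κB dimers. RefSeq promoter windows (GRCm38.p6, 250 bases before to 50 after each start) were at hand for 7 members, namely Bcl3, Nfkb2, Nfkbia, Nfkbib, Nfkbie, Rel and Rela. The 10-base consensus was searched on both strands and was found in windows of 5 of these 7 genes, against 2581 of all 27025 genes in the table (9.55%), or 2779 of 32851 windows (8.46%). The 7 genes had 9 windows. The 250 bases before their starts held 57.6% (Nfkbie) to 77.6% (Rel) G and C, beside a median of 52.4% in the table. The shares over all genes were not matched for G and C or for the number of windows. The matches follow with 10 bases on either side, from 5′ to 3′ on the strand of the gene, with the matching bases in capitals.
Bcl3, from 2 bases after the start, chr7:19822744-19822753, minus strand: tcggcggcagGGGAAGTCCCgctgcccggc
Nfkbia, 29 bases before the start, chr12:55492667-55492676, minus strand: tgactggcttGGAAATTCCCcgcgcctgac
Nfkb2, 39 bases before the first start, chr19:46304698-46304707, plus strand: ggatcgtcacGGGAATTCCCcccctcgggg
Nfkb2, 11 bases before the first start, chr19:46304726-46304735, plus strand: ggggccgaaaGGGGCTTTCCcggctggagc
Rel, 92 bases before the start, chr11:23771052-23771061, minus strand: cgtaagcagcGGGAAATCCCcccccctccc
Nfkbie, 106 bases before the start, chr17:45555594-45555603, plus strand: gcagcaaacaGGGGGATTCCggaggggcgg
The sites of Bcl3, Rel and the first of Nfkb2 read as a match on both strands, and each of the latter pair overlaps a further match shifted by 1 base. Nfkb2 has windows at further starts, with matches at chr19:46305459-46305468 and chr19:46305705-46305714. No match was found in the windows of Nfkbib and Rela. These letters were searched for as sequence, and binding was not measured here.

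The promoters of Nfkbia and Nfkb2 are given in full because both genes were lower in the libraries labelled KO when the cells of 1 animal were compared. The 250 bases before each start run 5′ to 3′ on the strand of the gene, with κB matches in capitals.
Nfkbia, chr12:55492648-55492897, minus strand: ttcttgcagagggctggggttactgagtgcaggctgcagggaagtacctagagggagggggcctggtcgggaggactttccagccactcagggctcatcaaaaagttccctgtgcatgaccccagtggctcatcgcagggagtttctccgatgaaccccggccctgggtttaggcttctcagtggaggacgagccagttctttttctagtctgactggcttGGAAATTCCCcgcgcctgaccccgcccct
Nfkb2, chr19:46304487-46304736, plus strand: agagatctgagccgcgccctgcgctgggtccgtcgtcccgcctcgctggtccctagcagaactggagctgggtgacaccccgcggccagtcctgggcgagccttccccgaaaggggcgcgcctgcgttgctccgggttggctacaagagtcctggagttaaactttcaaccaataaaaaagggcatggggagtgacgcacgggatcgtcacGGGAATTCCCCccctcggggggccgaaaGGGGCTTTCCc

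Bcl3, the gene deleted in the mutant marrow, was first read in every library. Over all cells it stood at 33.2 CPM (its UMIs scaled to 1000000 UMIs of the kept cells that are summed) in WT1 and 27.6 in KO1, and at 108 in WT2 and 86.6 in KO2. The libraries labelled KO thus still held Bcl3 UMIs, at 603 in KO1 and 1864 in KO2. Which part of the gene (ENSMUSG00000053175, chr7:19808462-19822770, minus strand, GRCm38) the deletion removes was not found in the sources used here, and the assay reads the 3′ ends of transcripts. These UMIs therefore do not check the labels, and each difference between genotypes below takes its direction from the labels.

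The largest difference in Bcl3 lay between the chimeras, not between the genotypes. Chimera 2 was 3.25-fold above chimera 1 in WT cells and 3.13-fold above it in cells labelled KO, and the libraries of the chimeras did not overlap. In the edgeR fit with genotype and chimera the log2 difference was 1.60 (SE 0.077, adjusted p = 2.77e-08), in a comparison that called 366 of 11566 genes (3.16%). In order of adjusted p Bcl3 was number 4 of these 11566 genes, after Tpm3-rs7 (2.81), Ctse (-3.36) and Xist (3.03), and before Klra1, a Ly49 receptor found at 70.1 CPM in WT2 and at 0.99 CPM or less in each other library, and the Y-linked Ddx3y. The call on Bcl3 was lost without genotype in the fit (adjusted p = 0.118), without KO1 (0.126) and without WT2 (0.0623), where the difference was 1.60, 1.48 and 1.396. With 3 libraries a fit with genotype has no residual degrees of freedom, so the fits without KO1 and without WT2 also leave out genotype, change both at once, and take the lone library of an arm to vary like the others. Only 2 animals were compared, and the study's legends place them in separate experiments, so that animal, experiment and library cannot be told apart in this contrast.

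No other member was called between the chimeras over all cells. Their log2 differences ran from -0.20 for Nfkb1 (adjusted p = 0.207) to 0.22 for Nfkbia (adjusted p = 0.103). In T cell clusters alone, a fit added after the data were seen and in which 5.59% of genes were called, Bcl3 was 1.86 higher in chimera 2 (SE 0.083, adjusted p = 3.60e-15) and Nfkbia 0.28 higher (SE 0.070, adjusted p = 0.0122). T cell clusters here are all clusters but those named from B cell, plasma cell, neutrophil or myeloid genes and the small clusters that were left out. Cells outside the T cell clusters held 19.4% of the Bcl3 UMIs of WT1, 29.2% in KO1, 8.51% in WT2 and 11.7% in KO2, and between 7.12% and 17.6% of the UMIs of each other member in a library.

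**Figure D1:**
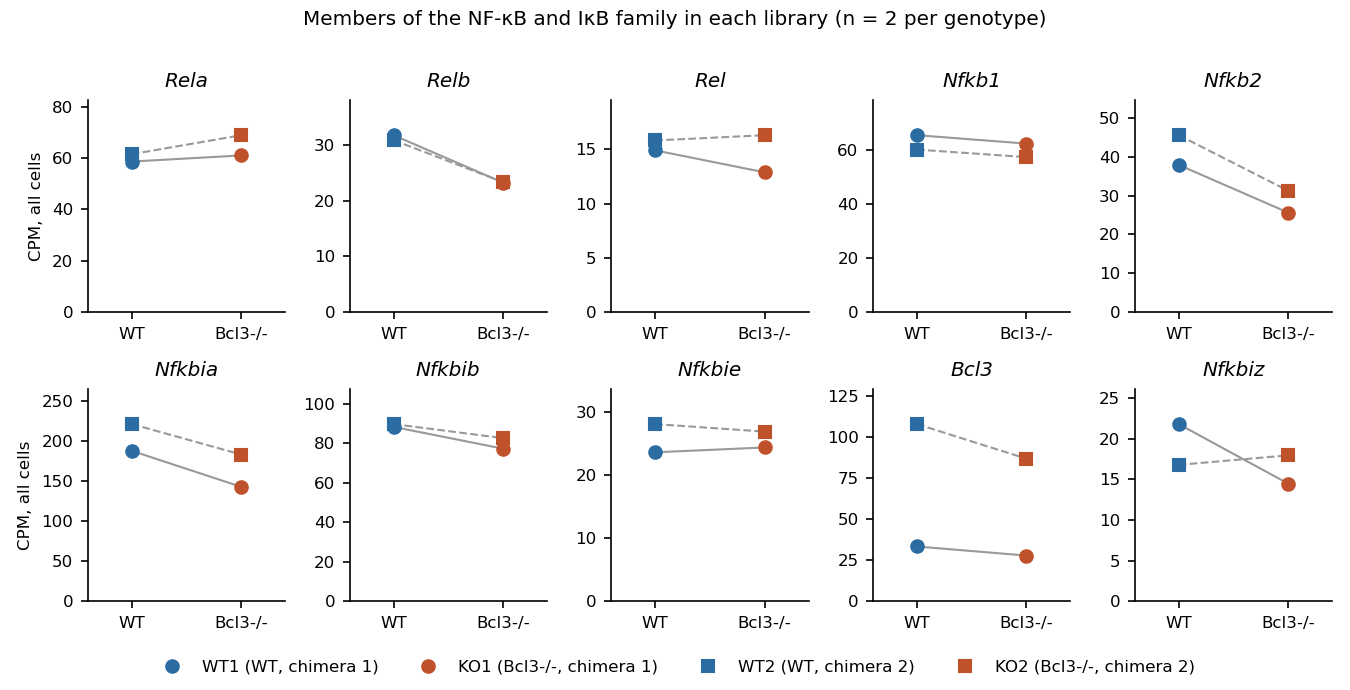
Level of each of the 10 members over all cells (CPM, linear axis from 0) in WT and Bcl3-/- libraries, with lines joining the libraries of 1 chimera (circles and solid line, chimera 1, squares and dashed line, chimera 2). Bcl3 stands at 33.2 and 27.6 CPM in chimera 1 and at 108 and 86.6 CPM in chimera 2, while Nfkb2, Relb and Nfkbia are lower in the Bcl3-/- library of both chimeras.

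Xist, the RNA that coats the inactive X chromosome, moved with Bcl3 between the chimeras, at 33.8 CPM in WT1, 43.9 in KO1, 325 in WT2 and 343 in KO2. Ddx3y, a gene of the Y chromosome, stood at 32.9 and 40.7 CPM in WT1 and KO1 and at 8.43 and 13.5 CPM in WT2 and KO2. Both genotypes of a chimera therefore sided together. Within the T cell clusters of WT1, 143 cells (3.09%) had a UMI of Xist and held Bcl3 at 75.2 CPM (95% exact Poisson interval 57.8 to 96.2), against 27.1 CPM (24.7 to 29.6) in the 4482 cells without one. In KO1 the 214 cells with Xist (4.33%) held Bcl3 at 69.8 CPM (55.0 to 87.3), against 18.7 CPM (16.8 to 20.8) in the other 4732 cells. Within chimera 1, cells with a Xist UMI thus held more Bcl3 than those without one in both libraries. Cells with Xist were also spread unevenly over classes, making up 1.97% of clusters with no name in WT1 but 5.45% of cycling and 9.21% of MPEC-gene clusters, which held more Bcl3. Within clusters with no name alone, Bcl3 stood at 67.4 CPM (38.5 to 109) with Xist and 21.8 CPM (19.0 to 24.9) without in WT1, and at 62.1 CPM (38.9 to 94.0) and 14.9 CPM (12.6 to 17.6) in KO1, from 16 and 22 Bcl3 UMIs in the cells with Xist.

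In chimera 2 the same split moved Bcl3 little. The 3033 cells with Xist in WT2 (39.3%) held 111 CPM (104 to 119) and the 4683 others 106 CPM (99.6 to 113), and in KO2 the values were 89.9 CPM (84.1 to 96.1) and 79.4 CPM (73.9 to 85.2). Cells of chimera 2 with a UMI of a Y-linked gene and none of Xist held Bcl3 at 105 CPM in WT2 (88.8 to 122) and 77.3 CPM in KO2 (67.1 to 88.7). Tpm3-rs7 split the same way, with 229 against 22.9 CPM in WT1, 212 against 19.5 CPM in KO1, 301 against 290 CPM in WT2 and 339 against 325 CPM in KO2. Rela, a family member for comparison, differed less between the sides, with 54.9 and 58.7 CPM in WT1 and 50.5 and 61.5 CPM in KO1. These intervals cover counting error only, cells of 1 library are not replicates, and a cell with more UMIs is more likely to show Xist (median 4509 against 3541 UMIs in WT1). Xist was also in free RNA, at 25.8 CPM in WT1 (6 UMIs) and 42.8 CPM in KO1 (26 UMIs) in barcodes of 10 to 100 UMIs, so that a Xist UMI does not by itself mark a cell that made it. B-like clusters were high in Xist and in Bcl3, and no doublet caller was run. Cd79a, a chain of the B cell receptor, stood at 1.19 CPM (0.030 to 6.65) in T cell cluster cells with Xist and 6.19 CPM (5.08 to 7.46) in those without in WT1, and at 4.59 CPM (1.49 to 10.7) and 5.82 CPM (4.78 to 7.02) in KO1. What part the origin of the cells has in the difference in Bcl3 was not tested.

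**Figure D2:**
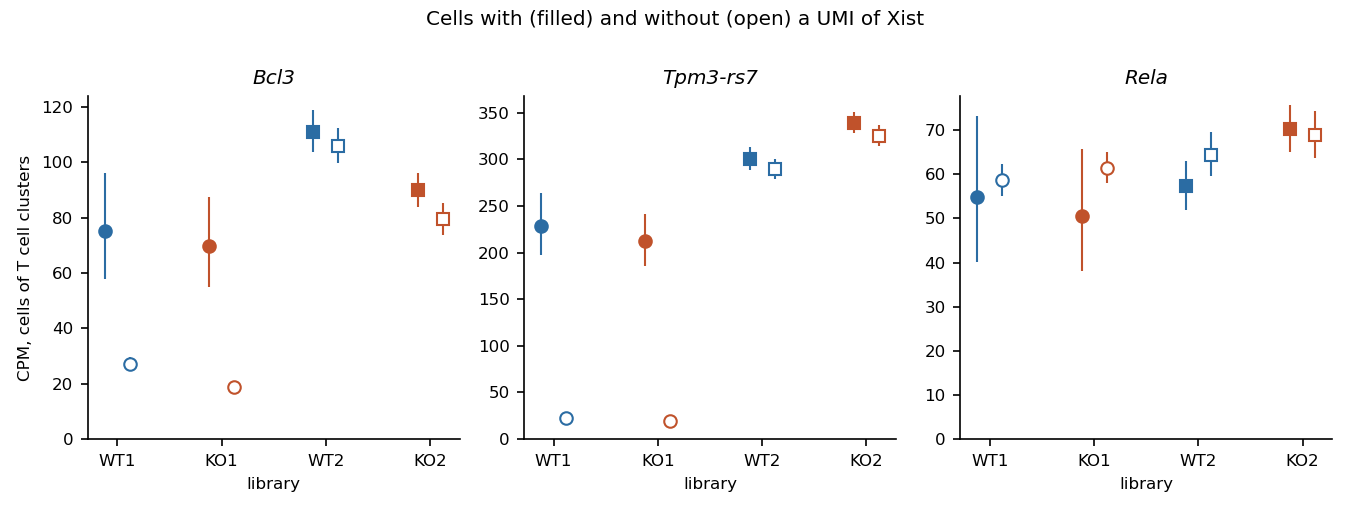
CPM of Bcl3, Tpm3-rs7 and Rela in T cell clusters of each library, for cells with a UMI of Xist (filled) and without one (open), with 95% exact Poisson intervals on linear axes. In WT1 and KO1 Bcl3 is at 75.2 and 69.8 CPM in cells with Xist and at 27.1 and 18.7 CPM in the others, while in WT2 and KO2 filled and open symbols lie close together.

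The cells were then read by class of clusters. Clusters were made in each library and named from lists of marker genes as MPEC-gene (memory precursor effector cells), terminal effector-like, cycling, interferon-like, B-like, plasma-like and neutrophil-like clusters, and 1 class with more than 1 kind of marker is called Lyz2 clusters by its leading gene. Clusters with no name, which fitted no list, held the most cells (2785, 2651, 4676 and 3550 in WT1, KO1, WT2 and KO2). The MPEC-gene clusters held 315, 132, 437 and 203 cells, and genes of naive T cells were as many or nearly as many among their 10 leading genes as genes of MPECs. They also held Cd4 at 19.0 CPM in WT1, 46.0 in KO1, 24.4 in WT2 and 21.7 in KO2, against 1.90 CPM or less in clusters with no name, beside Cd8a between 434 and 533 CPM. In sums over cells, fewer cells with a transcript and less RNA per cell cannot be told apart.

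Bcl3 was highest on average in B-like clusters (mean 124 CPM over 4 libraries, SD 37.1), Lyz2 clusters (112, SD 13.7) and MPEC-gene clusters (111, SD 47.0), and lowest in plasma-like clusters (23.3, SD 16.3). In MPEC-gene clusters it stood at 60.6 CPM in WT1, 90.2 in KO1, 123 in WT2 and 170 in KO2. In clusters with no name it stood at 22.8, 16.6, 104 and 76.7 CPM, and in terminal effector-like clusters at 13.9, 14.2, 108 and 72.2 CPM, in the same order. MPEC-gene clusters were thus above clusters with no name in each of 4 libraries, by 1.18- to 5.44-fold, although the ranges over libraries overlapped. Cycling clusters (33.8, 27.0, 112 and 87.0 CPM) and interferon-like clusters (57.5, 35.3, 118 and 118 CPM) lay between them on average. In the order of means no neighbouring classes were without overlap, and the span over libraries came mostly from the chimeras.

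The difference between the chimeras was not the same in every class. In clusters with no name Bcl3 was 4.57-fold (WT) and 4.63-fold (labelled KO) higher in chimera 2, and in terminal effector-like clusters 7.81- and 5.08-fold. In MPEC-gene clusters it was 2.03- and 1.89-fold higher, and in B-like clusters 1.32- and 1.99-fold. In neutrophil-like clusters, with 6 to 25 Bcl3 UMIs per library, the ratios were 1.15 and 0.891. Tested as an interaction, an analysis added after the data were seen, in an edgeR fit with a term for each library, the chimera difference was smaller in B-like clusters than in clusters with no name by 1.48 on the log2 scale (value -1.48, SE 0.26, adjusted p = 4.54e-05, 0.123% of genes called) and smaller in MPEC-gene clusters by 1.17 (value -1.17, SE 0.22, adjusted p = 0.00056, 0.136% of genes called). Between terminal effector-like clusters and those with no name it was not called (0.38, SE 0.21, adjusted p = 1.00), nor was any of 10268 genes in that edgeR test (0% called, 304 at an unadjusted p under 0.05). Xist stood at 9.15 CPM in clusters with no name of WT1 and 319 CPM in those of WT2, whereas B-like clusters held it at 354 CPM in WT1 and 451 CPM in WT2. Its part in these differences was not tested.

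**Figure D3:**
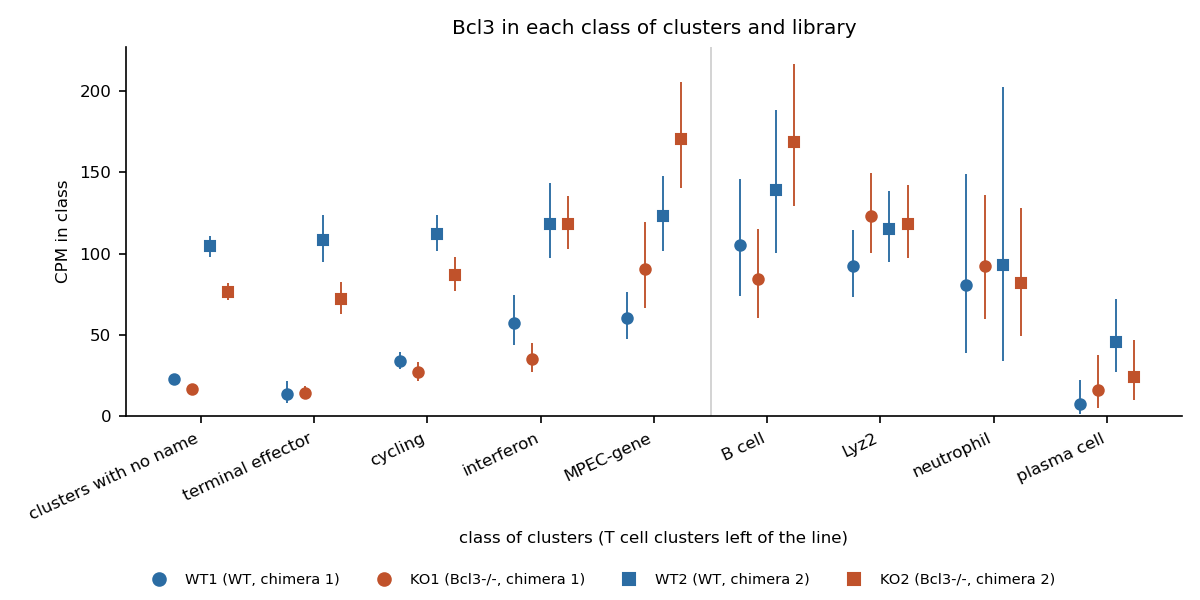
Bcl3 (CPM, linear axis from 0) in each class of clusters for the 4 libraries, with 95% exact Poisson intervals and T cell clusters left of the line. Chimera 2 (squares) lies near or above 72.2 CPM in each T cell class, while chimera 1 (circles) runs from 13.9 CPM in terminal effector-like clusters to 90.2 CPM in MPEC-gene clusters.

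The share of cells with a Bcl3 UMI was read next. After thinning each cell to 1000 UMIs, 2.75% of cells in WT1, 2.78% in KO1, 9.96% in WT2 and 8.63% in KO2 had a UMI of Bcl3, against 10.8%, 8.91%, 20.6% and 22.6% before thinning. MPEC-gene clusters had 6.03%, 10.6%, 9.52% and 14.9% after thinning, and clusters with no name 1.88%, 1.93%, 9.43% and 8.11%, so that both classes were close in WT2. Free RNA adds to such shares. Gzmb, which B cells should lack, was seen after thinning in 25.7%, 21.6%, 14.3% and 13.4% of cells of B-like clusters, whose median cell held 2297, 2901, 2025.5 and 2637 UMIs. No doublet caller was run, so these shares do not tell free RNA from doublets, and they set no level for Bcl3. Gzmb stood at 1252 to 1409 CPM in barcodes of 10 to 100 UMIs. In the same barcodes, which hold mostly free RNA, Bcl3 stood at 21.5 CPM in WT1 (5 UMIs), 28.0 in KO1 (17), 110 in WT2 (14) and 87.1 in KO2 (51). The free RNA thus showed the difference between the chimeras as well, at 0.649 to 1.02 times the level in cells, and no share of cells is read here as expression in single cells.

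The comparison of genotypes asks whether loss of Bcl-3 in T cells goes with another level of its relatives in the same host. Over all cells, 9 of 10 members were lower in the fit in the libraries labelled KO, as were 48.5% of all genes, and the median log2 difference of the 10 was -0.22 beside 0.0074 for all 11566 genes tested. Bcl3, the deleted gene, is counted in the 9 and in the median, so that neither describes its relatives alone. Nfkb1, Nfkb2, Relb, Nfkbia and Nfkbib were lower in both chimeras, as was Bcl3 itself, which makes 6 of 10 members against 31% of all genes. The libraries of the genotypes were lower in KO without overlap for 4 of 10 members (Nfkb2, Relb, Nfkbia and Nfkbib), and for 18.8% of all genes. In the fit without pairing, no member passed the test, where 42 genes did (0.363%). With 2 libraries a side an exact permutation test of a single value cannot go below p = 0.33, and p-values from the edgeR fits rest on a spread shared across genes.

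With the chimera as a block, which compares WT and KO cells of the same animal, edgeR called 4 of 10 members, all lower, where 4.84% of all genes were called lower. The 4 were the deleted gene Bcl3 itself (-0.31, SE 0.076, adjusted p = 0.0201), Nfkb2 (-0.57, SE 0.087, adjusted p = 0.00099), Relb (-0.44, SE 0.094, adjusted p = 0.0093) and Nfkbia (-0.35, SE 0.066, adjusted p = 0.0048). Without the block the same differences had adjusted p values of 0.837, 0.112, 0.128 and 0.249. For Bcl3 the direction without the block turned when KO1 (0.24) or WT2 (0.70) was left out, against -0.93 without WT1 and -1.30 without KO2. In T cell clusters alone the fit without pairing called none of the members (0.27% of genes called), and the block called the same 4, at -0.40, -0.62, -0.47 and -0.38, beside 5.92% of genes called lower. The sum of neutrophil marker genes was higher in the libraries labelled KO, at 1643 CPM in WT1, 2838 in KO1, 1080 in WT2 and 3212 in KO2 over 9 genes, S100a8 the most abundant and none at 0. Barcodes of 10 to 100 UMIs held S100a9, another gene of that list, at 1.29 to 1.69 times its level in cells, and leaving out clusters does not remove free RNA. Summed terminal effector markers were also higher in the libraries labelled KO, at 1567 CPM in WT1, 2649 in KO1, 1920 in WT2 and 2636 in KO2, and interferon markers lower, at 1609, 1203, 2381 and 1586 CPM. Terminal effector-like clusters, where mean Nfkb2, Relb and Nfkbia were below those of clusters with no name, held 9.29% of cells in WT1, 21.8% in KO1, 13.7% in WT2 and 16.8% in KO2. In interferon-like and MPEC-gene clusters the means of these genes were above those of clusters with no name. Interferon-like clusters held 5.22%, 8.72%, 5.49% and 7.95% of cells in the same order, a higher share in KO. MPEC-gene clusters held 6.38%, 2.46%, 5.40% and 3.13%, a lower share in KO. The directions of the interferon-like and terminal effector-like shares depended on the clustering. At resolution 0.4 interferon-like clusters held 301 cells in WT2 and 124 in KO2, a lower share in KO, while chimera 1 kept its direction. On clusters made without the members their share was lower in KO1 than in WT1, and chimera 2 kept its direction. The terminal effector-like share at resolution 0.4 was lower in KO1 than in WT1, and chimera 2 kept its direction. The parts of neutrophil RNA and of the make-up of the T cells in the differences were not tested.

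**Figure D4:**
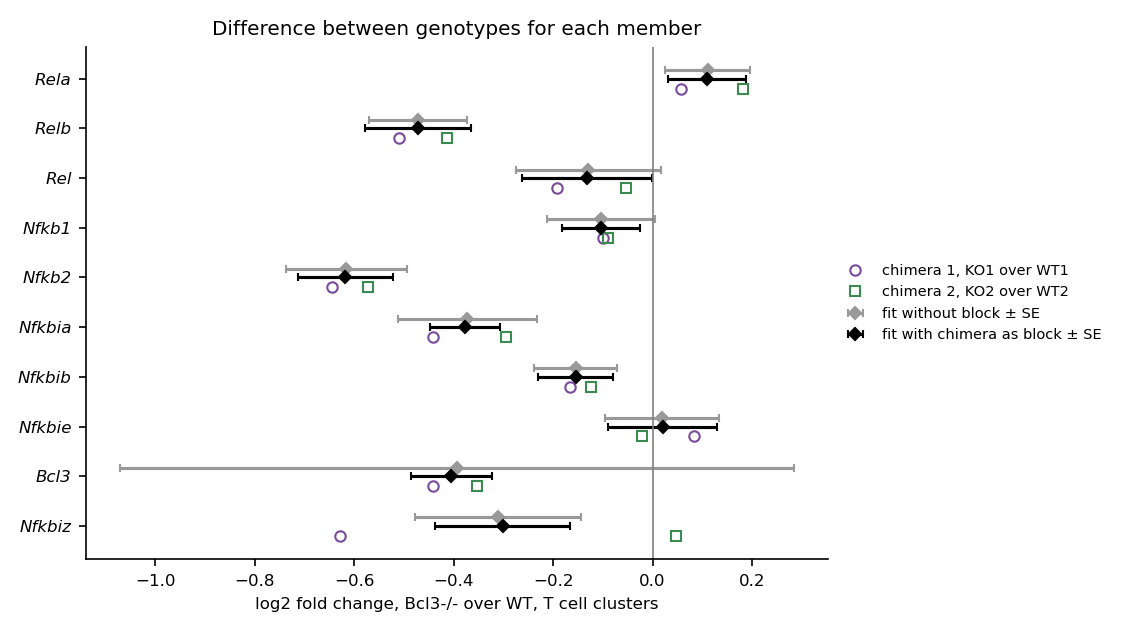
Log2 fold change of each member in T cell clusters, Bcl3-/- over WT, from the edgeR fit without pairing (grey) and with the chimera as a block (black), each ± SE, and the ratio within each chimera (open symbols). Nfkb2, Relb, Nfkbia and Bcl3 lie below 0 in both chimeras, and the error of Bcl3 shrinks from 0.68 to 0.082 with the block.

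Among the Rel proteins, Relb (chr7:19606217-19629438), which pairs with p52 in the alternative pathway, stood at 31.7 CPM in WT1, 23.2 in KO1, 30.9 in WT2 and 23.3 in KO2. Its 4 libraries separated by label, with 31.3 ± 0.627 CPM in WT and 23.3 ± 0.055 CPM in KO (mean ± SD, n = 2). Rela (chr19:5637483-5648130), the main activating subunit of the classical pathway, was the single member higher on average in KO, at 58.6, 61.0, 61.5 and 68.8 CPM, with a log2 difference of 0.095 (block, adjusted p = 0.480). Rel (chr11:23736847-23770970), which encodes the c-Rel of activated lymphocytes, stood at 14.9, 12.9, 15.8 and 16.3 CPM, where the genotypes overlapped and the chimeras went opposite ways. Neither Rela nor Rel passed the test.

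Of the precursors, Nfkb2 (chr19:46304320-46312385) was lower in KO in both animals, at 37.9 CPM in WT1 against 25.6 in KO1 and at 45.6 CPM in WT2 against 31.3 in KO2. The libraries of the genotypes did not overlap. It was also called without pairing by DESeq2 (-0.59, adjusted p = 0.031), which called 1.76% of genes. In edgeR without WT1 the difference was -0.68, but WT2 alone then stands for WT and the spread comes from the KO libraries. Nfkb1 (chr3:135584655-135691547), which encodes the p50 partner of Bcl-3, stood at 65.3, 62.2, 60.0 and 57.2 CPM in WT1, KO1, WT2 and KO2, and its difference of -0.085 with the block was not called (adjusted p = 0.534).

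Of the classical inhibitors, Nfkbia (chr12:55489410-55492647), the one resynthesised fastest after NF-κB activation, was at 188 CPM in WT1 and 143 in KO1, and at 221 CPM in WT2 and 183 in KO2. WT lay above KO in both chimeras, and the genotypes were separated by a narrow gap between WT1 and KO2. Nfkbib (chr7:28758251-28767512) was at 88.3, 77.3, 89.8 and 82.6 CPM (block -0.17, SE 0.069, adjusted p = 0.143), without overlap but not called. Nfkbie (chr17:45555703-45563169) was at 23.6, 24.3, 28.0 and 26.9 CPM, and the chimeras went opposite ways. Nfkbiz (chr16:55811375-55838899), the other nuclear IκB protein of the list, was at 21.8, 14.5, 16.8 and 18.0 CPM, with a log2 ratio of KO over WT of -0.59 in chimera 1 and 0.097 in chimera 2.

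Within classes of T cell clusters the directions were not all alike. In clusters with no name the fit with the block called Bcl3 (-0.48, adjusted p = 0.0247), Nfkb2 (-0.64, adjusted p = 0.0162) and Nfkbia (-0.38, adjusted p = 0.0185), all lower, beside 3.19% of genes, and the fit without it called no member (0.223% of genes). In terminal effector-like clusters Nfkbia was called with the block (-0.61, adjusted p = 0.0382, 1.37% of genes called) and not without it (adjusted p = 0.0854, 0.613% of genes called). There Nfkb2 was at 24.8, 14.5, 44.4 and 20.5 CPM in WT1, KO1, WT2 and KO2 and missed the threshold with the block (adjusted p = 0.0513) and without it (-1.07, SE 0.26, adjusted p = 0.124). In cycling clusters Nfkbia was called with the block (-0.46, adjusted p = 0.045, 1.51% of genes called) and no member without it (0.26% of genes called). No member was called in interferon-like clusters with (2.21% of genes called) or without the block (0.439%), nor in MPEC-gene clusters with (2.3%) or without it (0.736%). In interferon-like clusters the log2 ratio of KO over WT had opposite signs in chimera 1 and chimera 2 for Nfkb2 (-0.76 and 0.22), Relb (-0.70 and 0.71) and Nfkbia (-0.52 and 0.20). For Nfkb2 and Nfkbia these signs depended on the clustering. At resolution 0.4 Nfkb2 was at 31.2, 41.8, 37.4 and 26.4 CPM in WT1, KO1, WT2 and KO2, with both signs turned. Nfkbia was then at 200, 187, 223 and 206 CPM, lower in KO in both chimeras. At resolution 1.2 Nfkb2 was at 32.9, 39.6, 42.9 and 45.8 CPM, higher in KO in both.

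In MPEC-gene clusters Bcl3 was higher in both libraries labelled KO, by 0.57 in chimera 1 and 0.47 in chimera 2 on the log2 scale, and the test did not call it (block 0.52, SE 0.18, adjusted p = 0.121). Without pairing the difference was 0.55, and it ran from 0.076 without KO2 and 0.14 without WT1 to 0.87 without KO1 and 1.08 without WT2. Each of these fits leaves 1 library in an arm, so that the spread comes from the other arm. The difference between the chimeras also enters them, since Bcl3 in MPEC-gene clusters was 2.03-fold (WT) and 1.89-fold (labelled KO) higher in chimera 2. The genotype difference itself was larger there than in terminal effector-like clusters by 1.04 (edgeR, SE 0.26, adjusted p = 0.0192, 0.542% of genes called), and it remained so when clusters were made without the 10 members (0.97, adjusted p = 0.0357). In terminal effector-like clusters the log2 ratio of KO over WT was 0.034 in chimera 1 and -0.59 in chimera 2, so that the gap was wider in chimera 2. The fit had no term for a chimera difference that varies with class, although such a difference was called for MPEC-gene clusters against clusters with no name. Against clusters with no name the genotype difference in Bcl3 was larger by 0.88 and was not called (adjusted p = 0.441, 0.0876% of genes called). For Nfkbia the genotype difference in MPEC-gene clusters also exceeded that in terminal effector-like clusters, by 0.62 (SE 0.15, adjusted p = 0.0108), which did not hold on clusters made without the members (0.48, adjusted p = 0.0917). Nfkbia in MPEC-gene clusters was at 277 CPM in WT1, 307 in KO1, 334 in WT2 and 302 in KO2, so that the genotypes overlapped. Cd4 in these clusters was higher in KO1 than in WT1 and about level between WT2 and KO2, as given above. Xist, which went with more Bcl3 among cells of chimera 1, stood there at 61.5 CPM in WT1 and 125 in KO1. In chimera 2 it stood at 543 CPM in WT2 and 478 in KO2. The parts of Cd4 and of Xist in these differences were not tested. At a coarser clustering (resolution 0.4) no cluster of KO1 took this name, so that these contrasts have no KO1 side there.

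Levels of the other members by class were compared between MPEC-gene clusters and the other T cell classes. Nfkbia there was 1.51- to 2.33-fold above clusters with no name in the same library, without overlap of the 4 libraries, and 1.64- to 2.96-fold above terminal effector-like clusters. Relb was 1.54- to 1.64-fold above clusters with no name, again without overlap, at 50.2, 38.7, 49.9 and 37.2 CPM in WT1, KO1, WT2 and KO2. Nfkbiz was 1.45- to 2.19-fold above them without overlap. Nfkb1 was 1.04- to 1.56-fold above clusters with no name without overlap, while Rel (1.00- to 2.76-fold) and Nfkbie (1.15- to 1.32-fold) were higher in 4 of 4 libraries with overlapping ranges. Nfkb2 was higher in 3 of 4 libraries (0.971- to 1.85-fold) and Nfkbib in 1 of 4 (0.854- to 1.38-fold), both with overlap. Rela was higher in 2 of 4 libraries, and its means over libraries lay between 51.7 CPM in plasma-like and 65.9 CPM in MPEC-gene clusters and overlapped throughout the T cell classes. Because Bcl3, Relb and Nfkbia, and in some libraries Nfkb2 and Nfkbiz, were among the variable genes used to cluster, these orders are given as a description with no test.

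Outside T cells, Rel was highest in B-like clusters, at 55.5 CPM in WT1, 42.3 in KO1, 29.8 in WT2 and 70.7 in KO2, which is 1.70- to 5.09-fold above clusters with no name. Nfkbie was also highest there on average (mean 55.3 CPM, SD 19.97), as was Nfkb2 (72.5 CPM, SD 7.74), and none of the 3 overlapped with clusters with no name. B-like clusters were above Lyz2 clusters for Nfkbie in 2 of 4 libraries and for Nfkb2 in 3 of 4, with overlap. Nfkbia was highest in neutrophil-like clusters (372 CPM, SD 39.4), as was Nfkbiz (49.6 CPM, SD 22.0). Plasma-like clusters were lowest on average for Bcl3, Nfkb1, Rel, Rela, Relb, Nfkbib and Nfkbie, with mean levels such as 18.0 CPM for Nfkb1 and 5.60 CPM for Rel. Only for Nfkb1 and Rel were they below the next class in 4 of 4 libraries without overlap. For Bcl3 they were below it in 3 of 4 libraries, and for Rela, Relb, Nfkbib and Nfkbie in 2 of 4, with overlap. In WT1 they held 2 UMIs of Rel and 3 of Bcl3. These clusters came through a sort for CD8+ tetramer-positive cells and are small, with 40 to 78 plasma-like and 32 to 112 neutrophil-like cells per library.

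**Figure D5:**
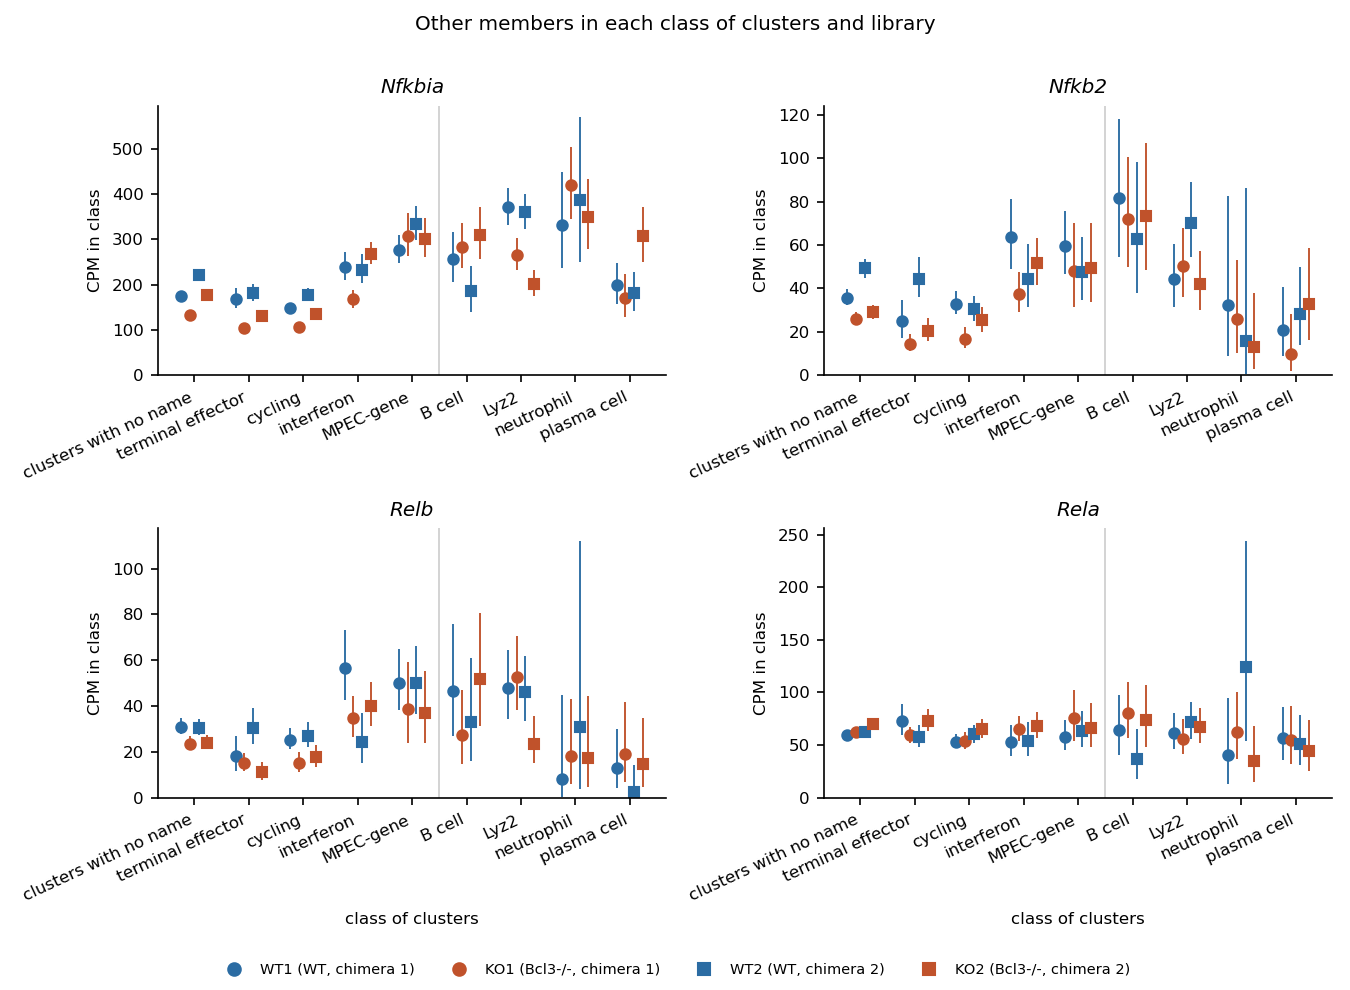
Nfkbia, Nfkb2, Relb and Rela (CPM, linear axes from 0) in each class of clusters for the 4 libraries, with 95% exact Poisson intervals. Nfkbia in MPEC-gene clusters lies between 277 and 334 CPM, above clusters with no name, cycling, interferon-like and terminal effector-like clusters, while Rela is nearly level over T cell classes.

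Likeness to Bcl3 was measured as Pearson correlation of log2(CPM + 1) over the 32 sums of a class and library with at least 50 cells, among 5112 genes of at least 20 CPM on average. The genes most like Bcl3 were Tnfaip8 (0.779), Tpm3-rs7 (0.776), Xist (0.729), Vps26a (0.710) and Ssbp2 (0.706). The sums share libraries, so that the difference between the chimeras enters each value. Within chimera 1 and chimera 2 taken singly, with 16 sums each, Tnfaip8 stayed at 0.779 and 0.758 while Tpm3-rs7 gave 0.676 and 0.249 and Xist 0.561 and 0.415. Among members, Relb correlated with Bcl3 within chimeras at 0.730 and 0.883, Nfkb2 at 0.752 and 0.706 and Nfkbia at 0.759 and 0.485. Over the 32 sums Relb stood at 0.447, Nfkb2 at 0.595 and Nfkbia at 0.585. The other members ran from 0.055 for Rela to 0.556 for Rel over these sums. For Nfkbia the most alike genes were Ssh2 (0.761), Iigp1 (0.756), Socs3 (0.747) and Ifi27l2a (0.742), the last of which was among the interferon markers used to name classes.

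The rest of the pathway was read from lists of other genes. The kinases of the IκB kinase complex and upstream of it had no gene called out of 11 with either fit, with a median log2 difference of 0.11. The TRAF and cIAP list (0 of 7, median 0.10), the negative regulators such as Tnfaip3 and Cyld (0 of 10, median -0.0084), the linear ubiquitin ligase genes (0 of 4, median 0.083) and the IκB relatives Nfkbid and Nfkbil1 (0 of 2, median 0.076) had no call either in the edgeR fits with or without pairing. Of 14 tested partners of Bcl-3, none was called without pairing and 1, Nfkb2, was lower with the block (median 0.011). Apart from Nfkb2, itself a member, no gene of these lists thus passed either test over all cells, beside 0.363% of all genes called without pairing and 9.65% with the block.

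Of 35 tested known targets of NF-κB, 1 was called without pairing and 3 higher and 5 lower with the block (median 0.051), where 9.65% of all genes were called, 4.81% higher and 4.84% lower. The single call was Xiap, an inhibitor of caspases, which was higher in KO, at 16.9 CPM in WT1, 30.0 in KO1, 19.4 in WT2 and 37.2 in KO2 (0.87, SE 0.12, adjusted p = 0.0408). Of 19 tested immediate early and stress genes, Jun, a subunit of AP-1, was called lower without pairing (-1.32, SE 0.12, adjusted p = 0.0158), at 32.2, 14.6, 40.3 and 14.8 CPM. In T cell clusters Jun remained called (-1.57, adjusted p = 0.0342) and Xiap did not (0.88, adjusted p = 0.0798). With the block 5 of the 19 genes of the immediate early list rose and 3 fell, beside the same 4.81% and 4.84% of all genes, among them Hsp90aa1, a chaperone, which fell from 219 CPM in WT1 to 158 in KO1 and from 250 CPM in WT2 to 185 in KO2 (-0.47, adjusted p = 0.00047). Ier3 (0.86) and Zfp36 (0.97), which encodes an mRNA decay factor, were higher with the block in both chimeras.

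Among ligands of the TNF and IL-1 families, 3 of 11 were higher and 1 lower with the block, against 9.65% of all genes called either way, and none was called without it (median 0.10). Ltb, a subunit of the lymphotoxin that drives the alternative pathway, was lower in KO, at 807 CPM in WT1, 587 in KO1, 1142 in WT2 and 798 in KO2 (-0.50, adjusted p = 0.0005). Il1b was higher (1.42), and 85.5% of its UMIs came from clusters other than T cell clusters. Among receptors, 3 of 16 were higher and 3 lower with the block (median -0.079), beside the same share of all genes. Tnfrsf4 (OX40) stood at 13.0, 5.96, 11.6 and 5.85 CPM in WT1, KO1, WT2 and KO2 (-1.07, adjusted p = 0.00083), and Tnfrsf9 (4-1BB) at 40.6, 24.02, 60.0 and 36.8 CPM (-0.75, adjusted p = 8.66e-05). Both are costimulatory receptors that signal to NF-κB, and both were lower in KO in both animals, with adjusted p values of 0.0513 and 0.187 without pairing. Il18rap, a chain of the IL-18 receptor, was higher (0.40, adjusted p = 0.0027).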

How the data were processed

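The deposited files hold unnormalized UMI counts for each gene and barcode, empty barcodes included, which the authors made from 10x Genomics 3′ (v2) libraries. Per the submitters' processing notes these were made with bcl2fastq 2.17 and Cell Ranger 2.2.0, with the build mm10. The files named 27998 genes, of which 27722 matched GENCODE vM21 (GRCm38) by identifier. The libraries held 21193300 (WT1), 22922219 (KO1), 20358780 (WT2) and 22672343 (KO2) UMIs.

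Barcodes with 500 genes or more and up to 10% of UMIs from mitochondrial genes were used as cells. Clusters were made per library (Seurat 5.3.0, 2000 variable genes, 15 components, 20 neighbours, resolution 0.8) and named when at least 3 markers of a list were 2-fold up and found in 10% of cells. Clusters of less than 1% of a library's cells were dropped, except plasma-like and neutrophil-like ones, which are given as levels. No doublet caller was run. Libraries shared 37 to 63 barcodes in pairs, close to chance (36.0 to 71.3).

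UMIs were summed per library, and edgeR 4.0.16 (TMM, filterByExpr, quasi-likelihood test, Benjamini-Hochberg over all genes tested, called at 0.05) compared KO with WT, and chimera 2 with chimera 1 with genotype in the fit. WT and KO libraries that share a number were sorted from 1 animal, so the numbers pair them. The difference of WT1 from WT2 correlated with that of KO1 from KO2 at 0.291 across 6863 genes, which are not independent. A fit with the chimera as replicate block is reported next to the unpaired one. The 2 chimeras came from separate experiments by the study's legends, and the chimera is also the experiment in each fit. On simulated counts for the genotype comparison over all cells, the fit recovered 79% of genes changed 2-fold (11437 genes, 2 false calls) and 83% with the block (11441 genes, 15 false calls), and 96% and 97.5% of genes changed 4-fold. The simulated libraries held no difference between chimeras and had the spread estimated with the block. The shares recovered without the block are therefore not shown to hold for these data. Alternatives were DESeq2 1.42.0, other filters, scalings, depths and clusterings, and leaving out each library (for the chimera contrast without genotype, added after the data were seen).

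Intervals are exact at 95% and cover counting error only. Named were all 10 members, genes of the other lists called without pairing, the 4 with the smallest adjusted p in each direction among genes called only with the block and moved the same way in both chimeras, and the 5 genes most like Bcl3 and Nfkbia. A few results under this rule are not reported here. The members and lists were chosen with earlier results of these data known. Promoters are from RefSeq (GRCm38.p6). Apoe and Pglyrp1, and the genes of chromosome 7 beside Bcl3, were chosen after their values were seen.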

Additional observations from a re-analysis of the deposited data

Results flagged for a closer look

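Bcl3 differed between genotypes in another way in MPEC-gene clusters than in terminal effector-like clusters, by 1.04 on the log2 scale (SE 0.26), as a test of the difference itself showed (edgeR, adjusted p = 0.0192). Nfkbia did so by 0.62 (SE 0.15, adjusted p = 0.0108 in edgeR), a call lost on clusters made without the members. The difference of chimera 2 from chimera 1 in Bcl3 was smaller in B-like clusters than in clusters with no name (-1.48, SE 0.26) and smaller in MPEC-gene clusters (-1.17, SE 0.22), by the same kind of test. On clusters made without the members these values were -1.51 and -1.04. These 4 tests were added after the data were seen and were not repeated with a library left out, and what sets the classes apart was not tested. The tests of genotype had no term for a chimera difference that varies with class, and for Bcl3 the gap was wider in chimera 2.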

How the results depend on the processing

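With the chimera as replicate block, edgeR called 1116 genes between genotypes over all cells in place of 42, 1306 in place of 30 in T cell clusters, and 329, 116, 139, 166 and 150 in place of 23, 52, 24, 33 and 48 in clusters with no name, terminal effector-like, cycling, interferon-like and MPEC-gene clusters, and Bcl3 became a call (-0.31). The block's effect on each member stands beside it in the report. DESeq2 called 199 genes over all cells, 157 in T cell clusters and 148 between chimeras (366 in edgeR). No filter on low counts left 6 calls in T cell clusters. With equal cells and UMIs 27 genes were called between genotypes and 86 between chimeras, and differences near 0 turned for Nfkb1 (0.017), Nfkbie (0.13) and, between chimeras, Relb (0.042). Without genotype in the chimera fit 3 genes were called, and Bcl3 stayed at 1.60. At resolution 0.4 mean Bcl3 in neutrophil-like clusters was 94.6 CPM. MPEC-gene clusters of KO1 then held 0 cells in place of 132, and terminal effector-like clusters of WT1 1958 cells in place of 459. Interferon-like clusters held 109, 356, 301 and 124 cells in WT1, KO1, WT2 and KO2, in place of 258, 468, 444 and 516.

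Leaving out 1 library at a time gave 40 to 228 calls over all cells, 29 to 167 in T cell clusters, and 9 to 309, 59 to 338, 21 to 164, 68 to 279 and 50 to 90 calls in the classes in the above order. Genotype differences then ran from -1.30 to 0.70 for Bcl3, -0.20 to 0.023 for Nfkb1, -0.22 to 0.018 for Rel and -0.12 to 0.065 for Nfkbie over all cells, and from -1.62 to 0.79 for Bcl3 and -0.083 to 0.11 for Nfkbie in T cell clusters. Bcl3 ran from -1.89 to 0.95 in clusters with no name, -2.16 to 1.49 in terminal effector-like, -1.39 to 0.67 in cycling and -1.30 to 0.37 in interferon-like clusters. In interferon-like clusters Relb ran from -0.66 to 0.59 and Nfkbia from -0.50 to 0.11, and in MPEC-gene clusters Bcl3 from 0.076 to 1.08, Nfkb2 from -0.33 to 0.078 and Nfkbia from -0.082 to 0.11. Between chimeras a fit on 3 libraries cannot hold genotype, so that leaving out a library was tried without genotype and is to be set beside the 3 calls of that fit on 4 libraries. It gave 5 to 9 calls, and Bcl3 ran from 1.396 to 1.77, Nfkb2 from -0.14 to 0.51, Rela from -0.018 to 0.090, Relb from -0.35 to 0.14, Nfkbib from -0.12 to 0.076 and Nfkbiz from -0.40 to 0.18. The cause was not tested. With 2 libraries a side, a member that passed no test is not shown to be alike.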

Other observations

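Bcl3 and Relb lie 179024 bases apart on chromosome 7, and 36 tested genes lay within 1000000 bases of Bcl3. Apoe, a lipid carrier of macrophages, was the 1 gene of these called without pairing in edgeR, at 32.9 CPM in WT1, 18.1 in KO1, 37.4 in WT2 and 19.9 in KO2 (-0.90, adjusted p = 0.0269). With the chimera as a block 4 of the 36 were higher and 3 lower, the latter being Relb, Apoe and Pglyrp1 (485, 395, 511 and 386 CPM in the same order), beside 556 higher and 560 lower of all 11566 genes and 53 higher and 44 lower of 897 genes on chromosome 7. Their median log2 difference without pairing was 0.03, beside 0.0074 for all genes. Gm16174, which overlaps Bcl3, stood at 2.28, 1.79, 3.12 and 2.14 CPM.

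Summed markers of other cell types stood, in WT1, KO1, WT2 and KO2, at 2213, 2336, 2404 and 2283 CPM for B cells, 1966, 1817, 2338 and 1896 CPM for myeloid cells and 1121, 986, 1221 and 1279 CPM for plasma cells. Erythroid markers stood at 73.8, 14.9, 108 and 239 CPM and genes of T cell identity at 6725, 7115, 6668 and 7300 CPM.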
